A study of Mus musculus with 10 samples.

Results

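The genes described here are 38 members of the glutamatergic postsynapse: the ionotropic and metabotropic glutamate receptor subunits and the scaffold proteins and kinase that sit beneath them. They were taken as a fixed list of symbols and matched to gene identifiers of the GENCODE M21 annotation, and all 38 were found among the 47729 genes of the deposited count table. Their levels were followed in 10 RNA-seq libraries from brains of CF1 mice on postnatal day 56. Parents ate standard chow until 5 days before mating and normal-protein food (NP) from then. They were assigned at random to NP or to low-protein food (LP) for mating, and the dams kept that diet while pregnant and nursing. All offspring, LP ones included, were weaned on postnatal day 21 and then lived on the NP diet for 5 weeks, so no animal was on low protein when its brain was taken. Prefrontal cortex and hippocampus each had 1 library for every combination of sex and diet (males NP, males LP, females NP, females LP), and hypothalamus had males only, 1 NP and 1 LP. The labels do not say whether a library holds 1 animal or several, and with 1 library per group the spread used in every test is that between libraries of different region, sex and diet once the fitted terms are removed. Library totals lay between 7871010 and 16265481 counts. In the hippocampus library of NP females, counts stopped at Park7 on chromosome 4 and were 0 on chromosomes 5 to 9, X, Y and the mitochondrial genome. In that library 19598 genes, 18 of these 38 among them, were treated as missing, so the remaining 20 were measured in every library. The 19598 also hold the 419 identifiers not matched to the annotation, which have no position here.

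Glutamate released at an excitatory synapse opens ionotropic receptors, which are tetramers. AMPA receptors (Gria genes) carry the fast current, NMDA receptors (Grin genes) need a depolarised membrane as well as glutamate and let calcium in, and kainate receptors (Grik genes) modulate transmission on both sides of the synapse. Metabotropic receptors (Grm genes) signal through G proteins instead. Under the membrane, the Dlg proteins of the PSD-95 family bind receptor tails, the Dlgap proteins link them to the Shank proteins, and Homer proteins join Shank to group I metabotropic receptors. The calcium-activated kinase CaMKII, of which the list holds Camk2a and Camk2b, is among the most abundant proteins of this structure in forebrain and is central to synaptic plasticity.

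The region labels were met by sums of marker genes, each over the members of its list that every library measured. Summed over 5 neocortical markers the level was 547 to 593 CPM (read counts scaled to library size) in the prefrontal cortex libraries, 156 to 168 in hippocampus and 53.0 to 56.4 in hypothalamus. Summed over 4 hippocampal markers it was 511 to 581 CPM in hippocampus and at most 131 CPM elsewhere. Summed over 7 hypothalamic markers it was 451 and 802 CPM in hypothalamus and at most 1.91 CPM elsewhere. The male NP hippocampus library stood apart in 551 CPM of 4 pituitary hormone genes, against at most 10.3 CPM in the other hippocampus libraries. Of the 30 genes called between hippocampus and prefrontal cortex below, only Grin1 lost its call when that library was left out. These are bulk tissue samples, in which fewer cells of a type and less RNA per cell cannot be told apart.

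Promoter sequences were available from RefSeq (GRCm38.p6) for 25 of the 38 genes, in 38 windows, here the 250 bases upstream of an annotated start. The 3 shown belong to genes that mark the regional pattern: Grik3 and Grm2 were both lower in hippocampus than in prefrontal cortex, and Dlgap1 was the scaffold with the largest fall in hypothalamus. The windows lie at chr4:125490446-125490695 on the plus strand, chr9:106656110-106656359 on the minus strand and chr17:69968823-69969072 on the plus strand. None of them overlaps an annotated exon. Each is written 5′ to 3′ on the strand of its gene, and capitals mark every GC box, the letters GGGCGG or their reverse complement.
Grik3: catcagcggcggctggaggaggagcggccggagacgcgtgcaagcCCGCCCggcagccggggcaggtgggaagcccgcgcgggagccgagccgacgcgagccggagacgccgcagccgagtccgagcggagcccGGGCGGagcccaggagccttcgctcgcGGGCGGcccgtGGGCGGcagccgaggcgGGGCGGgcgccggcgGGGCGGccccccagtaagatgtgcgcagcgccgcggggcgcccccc
Grm2: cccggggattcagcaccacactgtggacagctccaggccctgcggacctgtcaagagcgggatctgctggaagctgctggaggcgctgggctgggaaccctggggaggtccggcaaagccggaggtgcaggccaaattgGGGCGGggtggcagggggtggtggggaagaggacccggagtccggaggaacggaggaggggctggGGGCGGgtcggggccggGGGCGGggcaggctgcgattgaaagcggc
Dlgap1: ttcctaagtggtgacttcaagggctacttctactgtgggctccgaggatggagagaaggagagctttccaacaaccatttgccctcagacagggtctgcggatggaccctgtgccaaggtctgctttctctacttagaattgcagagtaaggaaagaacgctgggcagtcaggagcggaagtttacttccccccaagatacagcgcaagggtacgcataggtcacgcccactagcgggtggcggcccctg
The Grik3 window held 6 GC boxes, the Grm2 window 3 and the Dlgap1 window 0. Across the 38 windows of these genes 18 (47.4%) held at least 1 GC box, against 32.7% of all 32851 promoter windows of the same length. Their median GC content was 60.4%, against 52.4% over all windows. A match of letters describes the sequence and does not show that a factor binds it.

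The level of each gene, divided by the length of its exons so that genes can be compared, covered a wide range. Camk2a, the alpha subunit of CaMKII, was the highest of the 38 in prefrontal cortex and hippocampus, at 728 ± 20.3 CPM per kilobase (SD, n = 4) in the former and 728 ± 16.0 (SD, n = 4) in the latter. In unscaled counts it ranked 1 among the genes measured in each of the 8 libraries of those regions, and 225 and 209 in the 2 hypothalamus libraries. Among receptor subunits Gria1 was the highest in hippocampus, at 198 ± 6.11 CPM per kilobase (SD, n = 4). The lowest was Grin3b, a GluN3 subunit of NMDA receptors, with 1 to 12 counts in a library. It did not pass the filter on low counts, so tests cover the other 37 genes. By mean CPM, 19 of the 38 were highest in hippocampus, 13 in prefrontal cortex and 6 in hypothalamus, and 22 were lowest in hypothalamus. For 30 genes the step from the highest region to the next was called, 16 with hippocampus on top, 10 with prefrontal cortex and 4 with hypothalamus. For the other 7 tested genes, Grik5, Grin2c, Grin2d, Grid1, Dlg2, Dlgap2 and Camk2a, the 2 highest regions were not told apart. These orders and steps were not counted over all genes, of which 53.4% to 63.6% were called in a comparison of 2 regions.

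**Figure D1:**
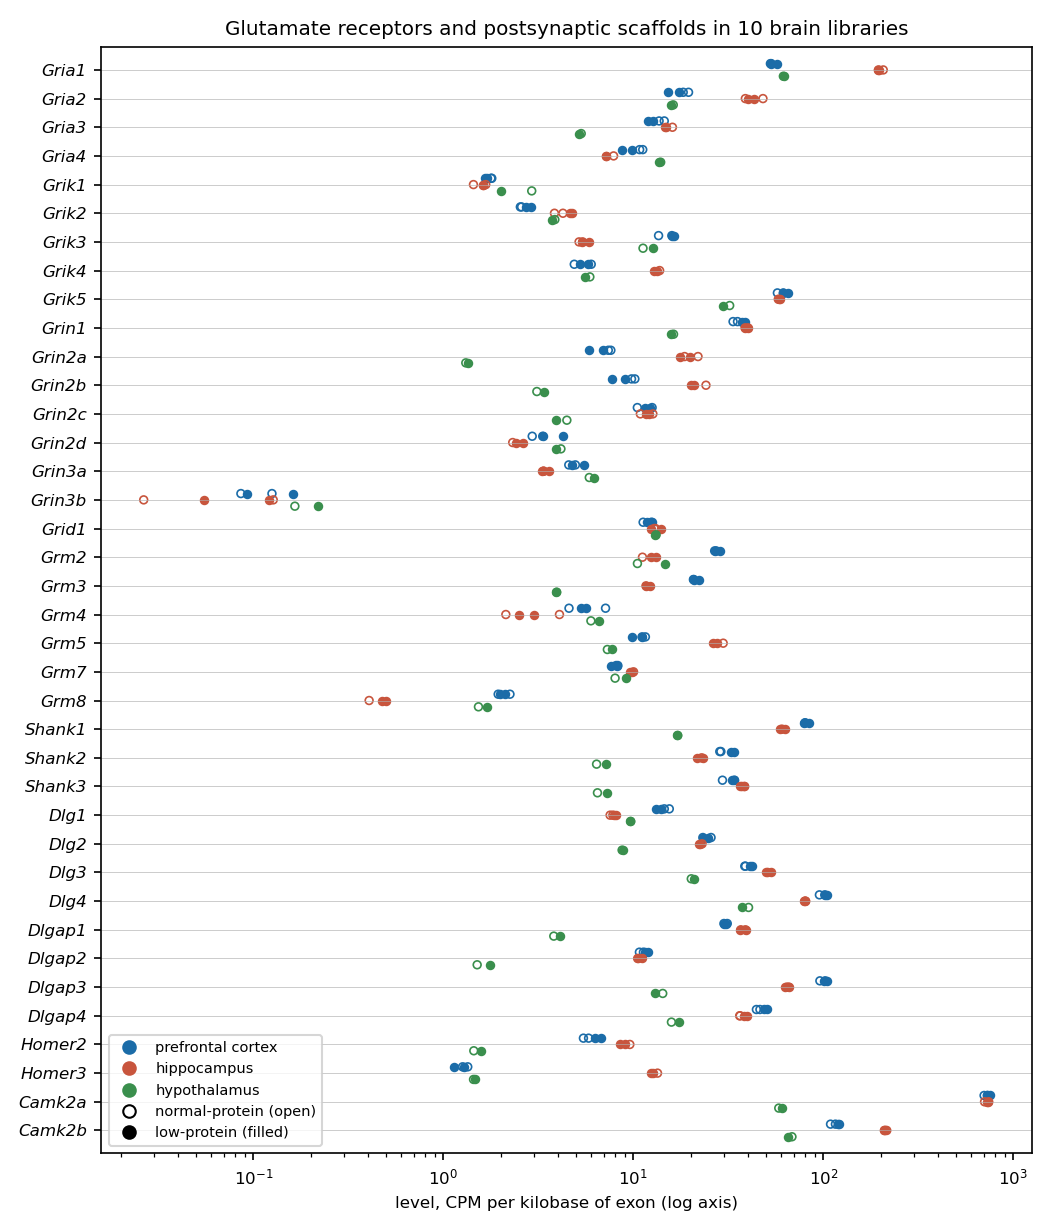
Level of each of the 38 genes in the 10 libraries, in CPM per kilobase of exon on a log axis, coloured by region, with open symbols for NP and filled for LP libraries. Regions separate for most genes, the hypothalamus mean is the lowest for 22 genes, and open and filled points of a region lie close together.

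In each test below a gene was called when its adjusted p was under 0.05 in edgeR's quasi-likelihood test with Benjamini-Hochberg adjustment over all genes tested. Values of single libraries are CPM, listed in the order male NP, male LP, female NP, female LP for prefrontal cortex and hippocampus, without female NP for hippocampus where that gene is missing, and NP, LP for hypothalamus. Differences are log2 differences from the fit, with their standard errors (SE).

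Hippocampus differed from prefrontal cortex in both directions. Of the 37 tested genes 30 were called, 16 higher in hippocampus and 14 lower. Of all 17550 genes tested 53.4% were called, 27.3% higher and 26.1% lower. At least 2-fold, 7 of the 37 were higher and 3 lower, where 6.49% of all genes were higher and 5.48% lower by that much (12% in all). The libraries of the 2 regions did not overlap for 30 of the 37, against 50.5% of all genes. The median difference was -0.01 over the 37 genes and -0.00451 over all genes. The 7 were Homer3, Gria1, Grin2a, Grm5, Grik4, Grin2b and Gria2, and the 3 were Grm8, Grik3 and Grm2.

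Among AMPA subunits Gria1, which encodes the GluA1 subunit that plasticity adds to synapses, read 318, 344, 321 and 322 CPM in prefrontal cortex and 1249.5, 1166, 1179 and 1194 CPM in hippocampus. All hippocampus libraries stood above all prefrontal cortex ones, and the difference was 1.86 ± 0.04 (SE, adjusted p = 4.39e-13), a 3.63-fold higher level. Gria2, whose edited product makes AMPA receptors impermeable to calcium, was higher by 1.26 ± 0.07. Gria3 was higher by 0.23 ± 0.05, and Gria4 was lower, at -0.42 ± 0.07. The 5 kainate receptor genes split. Grik4, a high-affinity subunit, was higher by 1.31 ± 0.07 and Grik2, the main pore-forming subunit GluK2, by 0.69 ± 0.07, and Grik1 and Grik5 were not called.

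Grik3 went the other way. It encodes the low-affinity kainate subunit GluK3 and read 122, 144, 143 and 147 CPM in prefrontal cortex and 48.5, 52.4, 46.5 and 48.3 CPM in hippocampus. No hippocampus library reached the lowest prefrontal cortex one, and the difference was -1.52 ± 0.06 (SE, adjusted p = 8.76e-11), a level 2.86-fold lower.

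Among NMDA subunits the obligatory Grin1 hardly differed, by 0.11 ± 0.04 (adjusted p = 0.0428), with overlapping libraries. It lost its call under 5 of the 10 omissions of 1 library: male NP or female NP prefrontal cortex, or male NP, male LP or female NP hippocampus, with adjusted p between 0.0861 and 0.143. It also lost it in DESeq2 (adjusted p = 0.109). Grin2a, which encodes the GluN2A subunit, read 136, 104, 132 and 124 CPM in prefrontal cortex and 393, 314, 334 and 357 CPM in hippocampus. The 2 sets were far apart, with a difference of 1.48 ± 0.07 (SE, adjusted p = 6.18e-10). Grin2b, the GluN2B subunit, was higher by 1.28 ± 0.07. Grin2d and Grin3a were lower, at -0.51 ± 0.115 and -0.55 ± 0.06, and Grin2c was not called (0.00 ± 0.07). Grid1, the delta receptor of the list, was not called either (0.10 ± 0.05).

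Of the 6 metabotropic receptors 4 were lower in hippocampus. Grm8, a presynaptic group III receptor, read 19.2, 19.6, 22.2 and 20.95 CPM in prefrontal cortex and 4.02, 4.93 and 4.73 CPM in hippocampus. Its hippocampus libraries lay well below, with a difference of -2.15 ± 0.12 (SE, adjusted p = 2.76e-09), a level 4.45-fold lower. Grm2, a presynaptic group II receptor, read 134, 132, 131 and 139 CPM against 54.7, 64.1 and 60.7 CPM in hippocampus. Those sets did not overlap either, and the difference was -1.20 ± 0.08 (SE, adjusted p = 1.94e-08). Grm3 and Grm4 were lower as well, at -0.83 ± 0.06 and -0.98 ± 0.11. Grm5, the group I receptor that Homer proteins bind, was higher by 1.37 ± 0.06, and Grm7 by 0.28 ± 0.07.

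Among the 13 scaffold genes 5 were higher in hippocampus and 6 lower, and 1 of them, Homer3, passed 2-fold. Homer3 encodes a long, coiled-coil Homer protein. It read 4.62, 3.90, 4.34 and 4.39 CPM in prefrontal cortex and 46.1, 42.8 and 43.7 CPM in hippocampus, the widest gap of all 37 genes. The difference was 3.37 ± 0.10 (SE, adjusted p = 3.88e-12), a 10.3-fold higher level. The other 4 that were higher, Homer2, Dlg3, Dlgap1 and Shank3, differed by 0.19 to 0.56. The call of Shank3 was lost when males alone were fitted (0.13, adjusted p = 0.195). The lower 6 were Dlg1, Dlgap3, Shank2, Shank1, Dlgap4 and Dlg4, with differences from -0.88 to -0.35. Dlg2 and Dlgap2 were not called. Without the male LP prefrontal cortex library Dlg2 was called (-0.16, adjusted p = 0.0341). Of the 2 CaMKII genes of the list Camk2b was higher by 0.85 ± 0.04 and Camk2a did not differ detectably (-0.01 ± 0.03, adjusted p = 0.719).

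**Figure D2:**
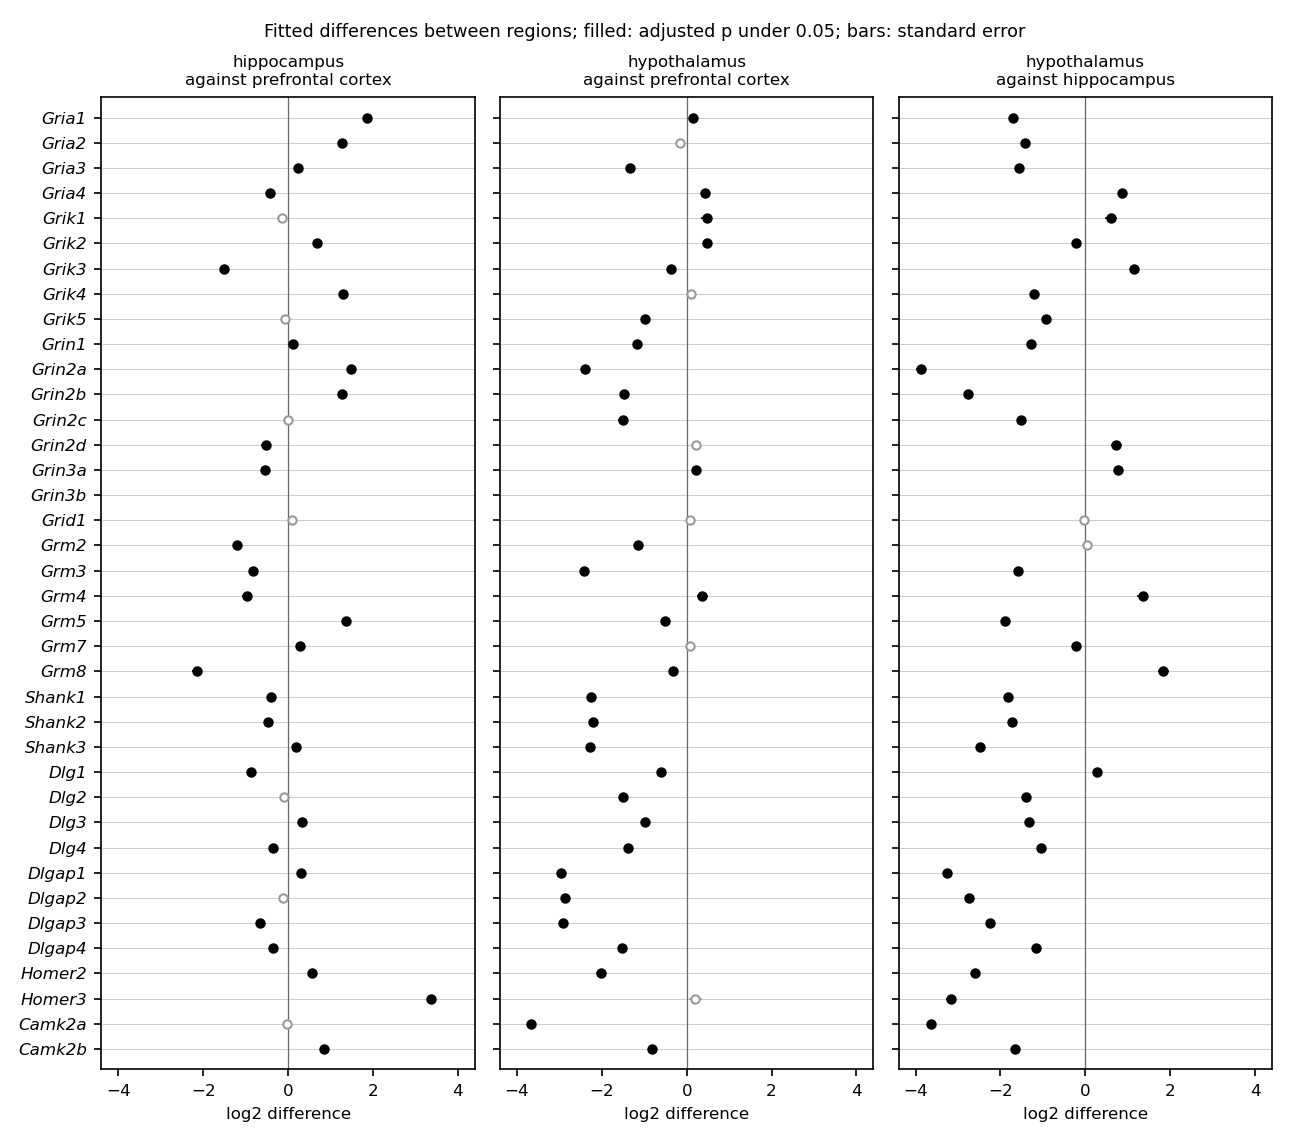
Fitted log2 differences of the 37 tested genes between the 3 pairs of regions, with bars for the standard error (often smaller than the symbol) and filled symbols for adjusted p under 0.05. The left panel has genes on both sides of 0, from Grm8 at -2.15 to Homer3 at 3.37. In the other panels most scaffolds, Camk2a and Camk2b lie below 0.

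In hypothalamus nearly every scaffold gene and both CaMKII genes of the list were low, while receptor genes moved both ways. Against prefrontal cortex 25 of 37 genes were lower and 6 higher, where 63.6% of all genes were called, 30.5% lower and 33.2% higher. At least 2-fold lower were 18, where 10.5% of all genes were, (24% in either direction). The largest of the 6 rises was 0.47, so none reached 2-fold, which 13.6% of all genes did. The median difference was -0.99 over the 37 genes and 0.02 over all genes. Against hippocampus 27 genes were lower and 8 higher, where 60.3% of all genes were called, 29.9% lower and 30.4% higher. At least 2-fold, 24 were lower (10.2% of all genes) and 3 higher (12.2% of all genes), 22.3% of all genes passing either way. Libraries did not overlap for 32 of 37 genes against prefrontal cortex (69.2% of all genes) and for 34 of 37 against hippocampus (69.8% of all genes). Both comparisons use the same 2 hypothalamus libraries, so they are given side by side and not as independent results.

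Camk2a fell most against prefrontal cortex. It read 5456, 5609, 5239.9 and 5428 CPM in prefrontal cortex, 5539.9, 5423, 5269.6 and 5499 CPM in hippocampus, and 435 and 452 CPM in hypothalamus. Every cortical and hippocampal library was over the hypothalamic ones by a wide margin, and the differences were -3.66 ± 0.05 against prefrontal cortex (adjusted p = 1.96e-15) and -3.65 ± 0.05 against hippocampus (adjusted p = 1.46e-15), a level 12.7-fold and 12.5-fold lower. Camk2b, the beta subunit, differed by -0.82 ± 0.05 and -1.67 ± 0.06.

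Of the 13 scaffold genes 12 were lower in hypothalamus than in prefrontal cortex, 10 of them at least 2-fold, with a median of -2.03. Dlgap1 read 536, 539, 558 and 547 CPM in prefrontal cortex, 696, 650.2, 658 and 699 CPM in hippocampus, and 68.2 and 73.8 CPM in hypothalamus. The hypothalamic libraries lay far below both other regions, with differences of -2.96 ± 0.06 (adjusted p = 7.02e-14) and -3.25 ± 0.06 (adjusted p = 3.98e-14). Dlgap3, whose loss in mice is known to cause compulsive grooming, read 463, 455, 434 and 472 CPM in prefrontal cortex, 291, 283, 298 and 298 CPM in hippocampus, and 64.5 and 58.6 CPM in hypothalamus. It stepped down across the 3 regions with no overlap, and the hypothalamic level was 7.49-fold lower than in prefrontal cortex (-2.91 ± 0.06, adjusted p = 1.34e-13). The 3 Shank genes fell by similar amounts, with differences of -2.24 for Shank1, -2.21 for Shank2 and -2.28 for Shank3. Within the PSD-95 family Dlg4, which encodes PSD-95 itself, and Dlg2 differed by -1.39 and -1.50, and Dlg3 and Dlg1 by -0.99 and -0.59. Homer3 was not called (0.20 ± 0.15, adjusted p = 0.276). Against hippocampus 12 of the 13 were again lower, all 12 at least 2-fold, and Dlg1 was higher by 0.28 ± 0.07.

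Receptors were mixed. Grin2a read 23.5 and 24.2 CPM in hypothalamus, under every library of the other regions given above, and differed by -2.39 ± 0.11 from prefrontal cortex (adjusted p = 2.27e-10) and by -3.87 ± 0.11 from hippocampus (adjusted p = 1.50e-12), the latter a level 14.6-fold lower and the largest fall of any of the 37 genes. Grin2b, Grin2c and Grin1 were lower against both regions, with differences from -2.76 to -1.17. Grin3a was higher against both (0.23 ± 0.07 and 0.77 ± 0.08), and Grin2d was higher against hippocampus (0.73 ± 0.13). Grm3, a group II receptor found on neurons and astrocytes, differed from prefrontal cortex by -2.43 ± 0.08.

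The genes that were higher in hypothalamus than in prefrontal cortex were Grik1, Grik2, Gria4, Grm4, Grin3a and Gria1. Gria4, the GluA4 subunit, read 70.6, 54.9, 68.1 and 61.7 CPM in prefrontal cortex, 49.6, 45.1 and 45.3 CPM in hippocampus, and 87.8 and 85.7 CPM in hypothalamus. Hypothalamus stood above both, by 0.44 ± 0.08 (adjusted p = 1.61e-04) and 0.86 ± 0.08 (adjusted p = 2.81e-07). Grik2 read 33.7, 35.9, 34.2 and 38.5 CPM in prefrontal cortex and 51.1 and 49.5 CPM in hypothalamus, which was higher by 0.47 ± 0.08 (adjusted p = 2.06e-04). Its hippocampus libraries, at 56.4, 63.0, 50.9 and 61.1 CPM, overlapped the hypothalamic ones. Grik1, the GluK1 subunit, read 12.0, 11.1, 12.1 and 11.4 CPM in prefrontal cortex, 11.2, 10.9, 9.68 and 10.8 CPM in hippocampus, and 19.6 and 13.6 CPM in hypothalamus. Both hypothalamic values were above all others, and they lay further apart than the libraries of either other region. Its difference of 0.47 ± 0.14 from prefrontal cortex (adjusted p = 0.00787) became 0.20 (adjusted p = 0.236) without the NP hypothalamus library, and that of 0.61 from hippocampus became 0.34 (adjusted p = 0.0575).

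Calls of small size moved with single libraries. Against prefrontal cortex Gria1 (0.15), Grin3a (0.23) and Grm4 (0.37) lost theirs without the male NP prefrontal cortex library (adjusted p = 0.0616, 0.110 and 0.103) and without the LP hypothalamus library (adjusted p = 0.0568, 0.0548 and 0.216). Grm8 (-0.31) lost it without either male prefrontal cortex library (adjusted p = 0.0657 for NP and 0.0512 for LP) or the NP hypothalamus library (adjusted p = 0.179). In the other direction Gria2 was called at -0.26 without the male LP prefrontal cortex library (adjusted p = 0.0227), Grm7 at 0.21 without the NP hypothalamus library (adjusted p = 0.0481) and Grin2d without the female LP prefrontal cortex or the LP hypothalamus library (adjusted p = 0.0363 and 0.0333). Against hippocampus Grik2 (-0.22) and Grm7 (-0.21) lost theirs without either male hippocampus library (adjusted p = 0.0885 and 0.180 without NP, 0.143 and 0.0691 without LP). Grik2 also lost it without the LP hypothalamus library (adjusted p = 0.331) and Grm7 without the NP one (adjusted p = 0.453), where Grm2 gained a call (0.24, adjusted p = 0.0296). With males alone, the sex present in all 3 regions, Gria1 and Grm8 lost their calls against prefrontal cortex (adjusted p = 0.0985 and 0.0528) and Grm7 its call against hippocampus (adjusted p = 0.0751). In DESeq2, Grin3a and Grm8 were not called against prefrontal cortex (adjusted p = 0.0625 and 0.136), nor Grik2 and Grm7 against hippocampus (adjusted p = 0.0893 and 0.118).

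Of the group III metabotropic receptors, Grm8 and Grm4 were higher in hypothalamus than in hippocampus. Grm8 read 15.1 and 16.9 CPM in hypothalamus, above every hippocampus library, a difference of 1.84 ± 0.14 (SE, adjusted p = 3.12e-08). Grm4 read 27.4, 31.5, 42.7 and 33.6 CPM in prefrontal cortex, 12.7, 14.9, 24.4 and 17.8 CPM in hippocampus, and 35.7 and 39.6 CPM in hypothalamus, with a difference of 1.35 ± 0.14 from hippocampus (adjusted p = 1.19e-06). Grik3 at 101 and 114 CPM also exceeded hippocampus, by 1.14 ± 0.08 (adjusted p = 1.04e-08), while remaining under prefrontal cortex (-0.38 ± 0.07). Among those 3 genes the 2 hypothalamic libraries lay apart from all of hippocampus.

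Genes outside the list moved in the same comparisons. Of 24 other postsynaptic density genes 19 were lower and 1 higher in hypothalamus than in prefrontal cortex, with a median of -0.66. Of 14 auxiliary subunits of AMPA and kainate receptors, which set the trafficking and gating of the channels, 10 were lower and 3 higher, with a median of -0.93. Between hippocampus and prefrontal cortex 7 auxiliary subunits were higher and 7 lower, and Shisa6 had the smallest p, with a difference of 4.29 ± 0.06 (adjusted p = 1.77e-14). Of 10 general neuron markers 7 were lower in hypothalamus than in prefrontal cortex and 1 was higher, with a median of -0.39. Their summed level over the 7 markers measured everywhere was 5859 to 6321 CPM in prefrontal cortex, 6326 to 6710.2 in hippocampus and 3278 and 3379 in hypothalamus. Between hippocampus and prefrontal cortex 6 of the 10 markers were called lower and 3 higher, with a median of -0.11. Over all 10 the sums overlapped, at 8752 to 9193 CPM in prefrontal cortex and 8831 to 9077 in hippocampus without female NP. Slc17a7, the vesicular glutamate transporter of cortical and hippocampal excitatory neurons, was at 2.94 and 3.56 CPM in hypothalamus and at 1812 to 2063 CPM in the 7 libraries of the other regions that measured it. Slc17a6, the transporter of many subcortical excitatory neurons, went the other way, at 235 and 290.2 CPM in hypothalamus and 7.72 to 18.5 CPM in those 7 libraries. The part of neuron number or type in the lower scaffold, Camk2a and Camk2b levels was not tested. All 8 oligodendrocyte markers were higher in hippocampus and in hypothalamus than in prefrontal cortex, with medians of 1.60 and 0.93. All 6 neuronal activity genes were at least 2-fold lower in both than in prefrontal cortex, with medians of -1.76 and -3.32. Of 6 microglia markers 5 were lower in hippocampus and 6 in hypothalamus, with medians of -0.54 and -1.08. Of 5 blood markers 5 were lower in hippocampus and 5 higher in hypothalamus, with medians of -1.21 and 0.67. The part of these lists in the regional differences of the receptor and scaffold genes was not tested.

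The make-up of receptor and scaffold families was read as the share of each gene in its family's summed counts per kilobase of exon, within each library. In 11 families 31 shares were compared between hippocampus and prefrontal cortex, and for 25 of them the libraries of the 2 regions did not overlap. Whether they passed a test depended on how the two-sided p was defined. With the smaller tail doubled, an exact permutation test of 4 libraries against 3 has 0.0571 as its smallest p, and 0 of the 31 shares had an adjusted p under 0.05. With the p taken from the size of the difference the smallest is 0.0286, and 24 of the 31 had an adjusted p under 0.05. The second definition was used first and replaced after its result was seen, so the shares are given as values with no call. Families hold only genes of the list, so Homer1 is not in the Homer share, nor Camk2d and Camk2g in the CaMKII share. Homer2 and Homer3 differed most. Homer3 made up 18.8%, 15.4%, 18.8% and 15.9% of Homer2 plus Homer3 in prefrontal cortex, 58.3%, 59.3% and 58.3% in hippocampus, and 49.9% and 48.2% in hypothalamus. The shares of prefrontal cortex stood apart from those of both other regions.

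In the AMPA family Gria1 took 56.9 ± 3.17% (SD, n = 4) in prefrontal cortex, 75.0 ± 0.77% (SD, n = 3) in hippocampus and 63.5% and 64.2% (NP, LP) in hypothalamus. Gria4 took 10.6 ± 0.97% (SD, n = 4), 2.79 ± 0.04% (SD, n = 3) and, in hypothalamus, 14.3% and 14.04%. Among GluN2 subunits Grin2d, which gives slowly closing NMDA receptors, took 11.1 ± 1.79% (SD, n = 4) in prefrontal cortex, 4.45 ± 0.57% (SD, n = 3) in hippocampus and 31.9% and 31.2% in hypothalamus. Grin2a and Grin2b took 22.1 ± 1.64% and 29.3 ± 2.60% (SD, n = 4) in prefrontal cortex. In hippocampus they took 35.6 ± 1.68% and 39.1 ± 1.59% (SD, n = 3), and in hypothalamus 10.1% to 10.7% and 23.8% to 26.9%. Grin2c took 37.4 ± 3.33% (SD, n = 4) in prefrontal cortex, 20.9 ± 2.20% (SD, n = 3) in hippocampus and 34.3% and 31.2% in hypothalamus. In male NP prefrontal cortex Grin2b had 2944 unscaled counts and Grin2c 766, over 24842 and 5037 bases of exon. Camk2a took 86.2 ± 0.58% (SD, n = 4) of Camk2a plus Camk2b in prefrontal cortex, 77.5 ± 0.45% (SD, n = 4) in hippocampus and 46.0% and 48.2% in hypothalamus, where Camk2b was thus the larger of the pair. Of the kinase genes left out of it, Camk2d stood at 133 and 144 CPM in hypothalamus and Camk2g at 245 and 236. Camk2d was at 97.9 to 120 CPM in prefrontal cortex and 36.8 to 40.5 in hippocampus. For Camk2g those regions read 327 to 354 and 195 to 207 CPM. Hypothalamus was thus the highest region for Camk2d and lay between the others for Camk2g. In the Dlgap family Dlgap4 took 24.98 ± 0.92% (SD, n = 4) in prefrontal cortex, 25.1 ± 0.82% (SD, n = 3) in hippocampus and 44.7% and 48.0% in hypothalamus. Shares rest on annotated exon length, and their size moved with it: the difference in Gria3 between hippocampus and prefrontal cortex was -8.19 percentage points with all exons and -11.5 with the longest transcript.

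**Figure D3:**
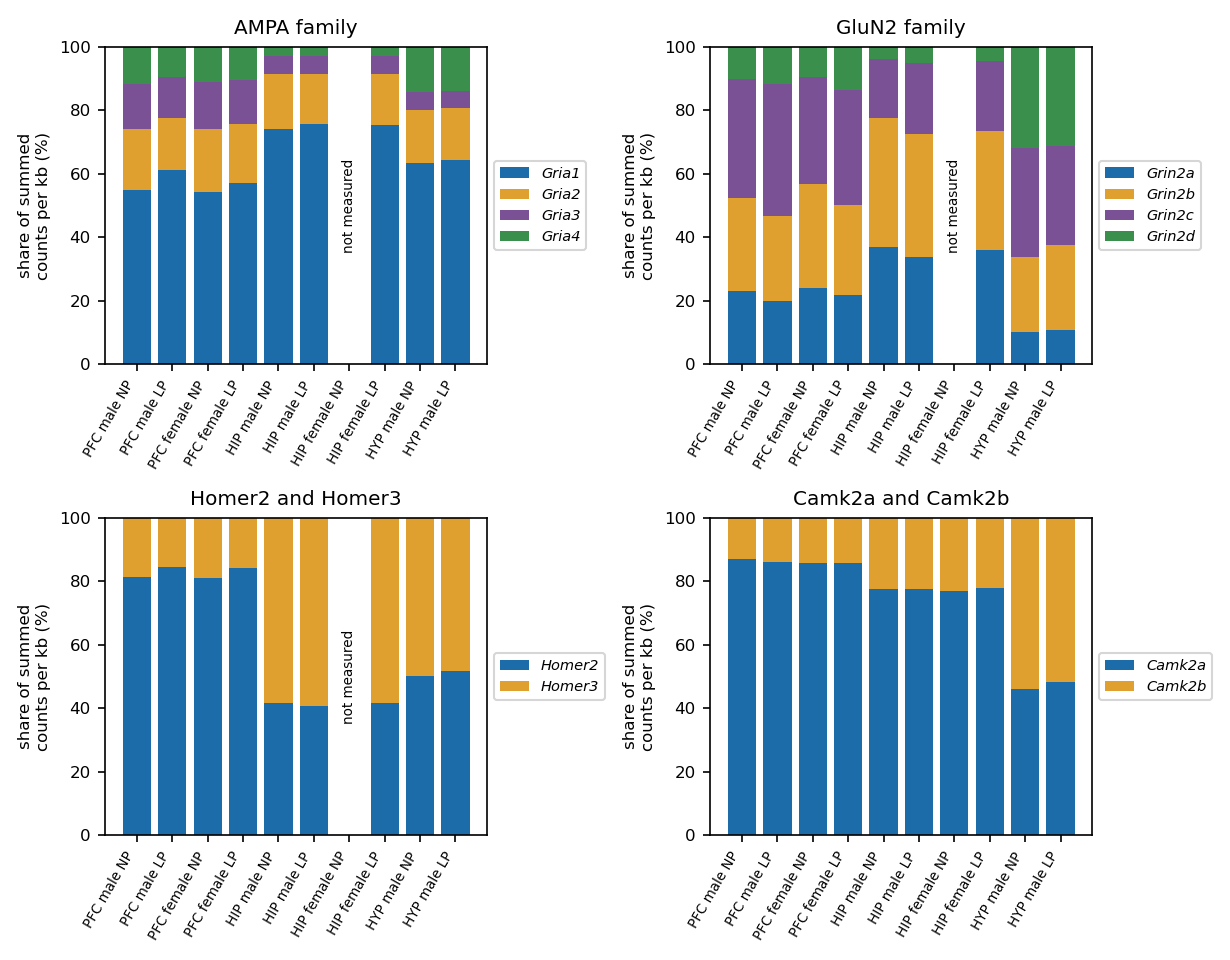
Share of each gene in its family's summed counts per kilobase, in percent, for the AMPA and GluN2 families, Homer2 with Homer3 and Camk2a with Camk2b in each library; the female NP hippocampus library is blank where a member was missing. Homer3 goes from 15.4% to 18.8% in prefrontal cortex to 58.3% to 59.3% in hippocampus, and Camk2b exceeds Camk2a in hypothalamus alone.

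Between LP and NP offspring the differences in these genes were small, and none was called. Over the 5 pairs of LP and NP libraries 0 of the 37 genes passed edgeR's quasi-likelihood test with Benjamini-Hochberg adjustment, where 1.21% of all 17547 genes tested did, and DESeq2 also called 0. At an unadjusted p under 0.05 there were 9 of 37, where 13.7% of all genes were. Fitted differences ran from -0.18 to 0.18 with a median of 0.01, and no gene reached 2-fold in any pair. Of all genes 2.91% did in the male and 3.09% in the female prefrontal cortex pair, 2.63% and 2.73% in the male and female hippocampus pairs and 2.4% in the hypothalamus pair. There were 5 genes with 1 sign in every pair in which they were measured, 13.2% of the 38 against 15.5% of all genes. They were Grik3, Dlgap2 and Dlgap4, higher in LP, and Gria3 and Gria4, lower in LP.

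The smallest p belonged to Dlgap4. Its NP and LP levels were 376 and 412 CPM in male and 392 and 427 CPM in female prefrontal cortex, 307 and 322 CPM in male and 308 and 333 CPM in female hippocampus, and 134 and 147 CPM in hypothalamus. LP was higher in all 5 pairs, by log2 ratios of 0.07 to 0.13, and the fit gave 0.11 ± 0.03 (edgeR quasi-likelihood, adjusted p = 0.132), an increase of 1.08-fold that did not pass. Grik3 was higher in LP in 5 of 5 pairs, by 0.04 to 0.24, with 0.13 ± 0.04 (adjusted p = 0.219).

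Gria3 was lower in LP in all 4 pairs that measured it. Its NP and LP levels were 135 and 118 CPM in male and 143 and 126 CPM in female prefrontal cortex, 158 and 144 CPM in male hippocampus and 52.4 and 51.0 CPM in hypothalamus, and the fit gave -0.14 ± 0.05 (adjusted p = 0.216). Gria4 went from 70.6 to 54.9 CPM and from 68.1 to 61.7 CPM in male and female prefrontal cortex, from 49.6 to 45.1 CPM in male hippocampus and from 87.8 to 85.7 CPM in hypothalamus, with -0.16 ± 0.06 (adjusted p = 0.264). The AMPA shares followed in the 4 pairs that measured the whole family. Gria1 took a larger share in LP in 4 of 4, by 0.77 to 6.32 percentage points, and Gria2, Gria3 and Gria4 a smaller one in 4 of 4. Shares of 1 family sum to 100%, so these signs are linked, and 7 of the 31 shares had 1 sign in every pair. The female hippocampus pair, without Gria3 and Gria4, has no AMPA share. There Gria2 rose more in LP than Gria1, with log2 ratios of 0.14 and 0.02.

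Grin2b (-0.17 ± 0.06, adjusted p = 0.264) was lower in LP in 3 of 4 pairs (log2 ratios of -0.33 in male prefrontal cortex, -0.25 in male hippocampus and -0.17 in female prefrontal cortex). It was higher in the hypothalamus pair (0.12). Without that pair it was called, at -0.25 (adjusted p = 0.0148), the 1 call that leaving out a pair produced in this fit. Beside these values, 4 of 6 neuronal activity genes were higher in LP over the pairs (Fos, Egr1, Arc and Nr4a1, with differences of 0.43 to 0.71), and all 8 oligodendrocyte markers had an unadjusted p under 0.05 and were lower in LP, 1 of them called, with a median of -0.33. Called lower in LP were also 4 of 5 blood markers (median -0.61), 4 of 8 hypothalamus markers (median -0.45) and 2 of 4 pituitary markers (median -2.20), and 1 of the 4 choroid plexus markers tested was called higher. The part of any of these lists in the ratios of the receptor genes was not tested.

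**Figure D4:**
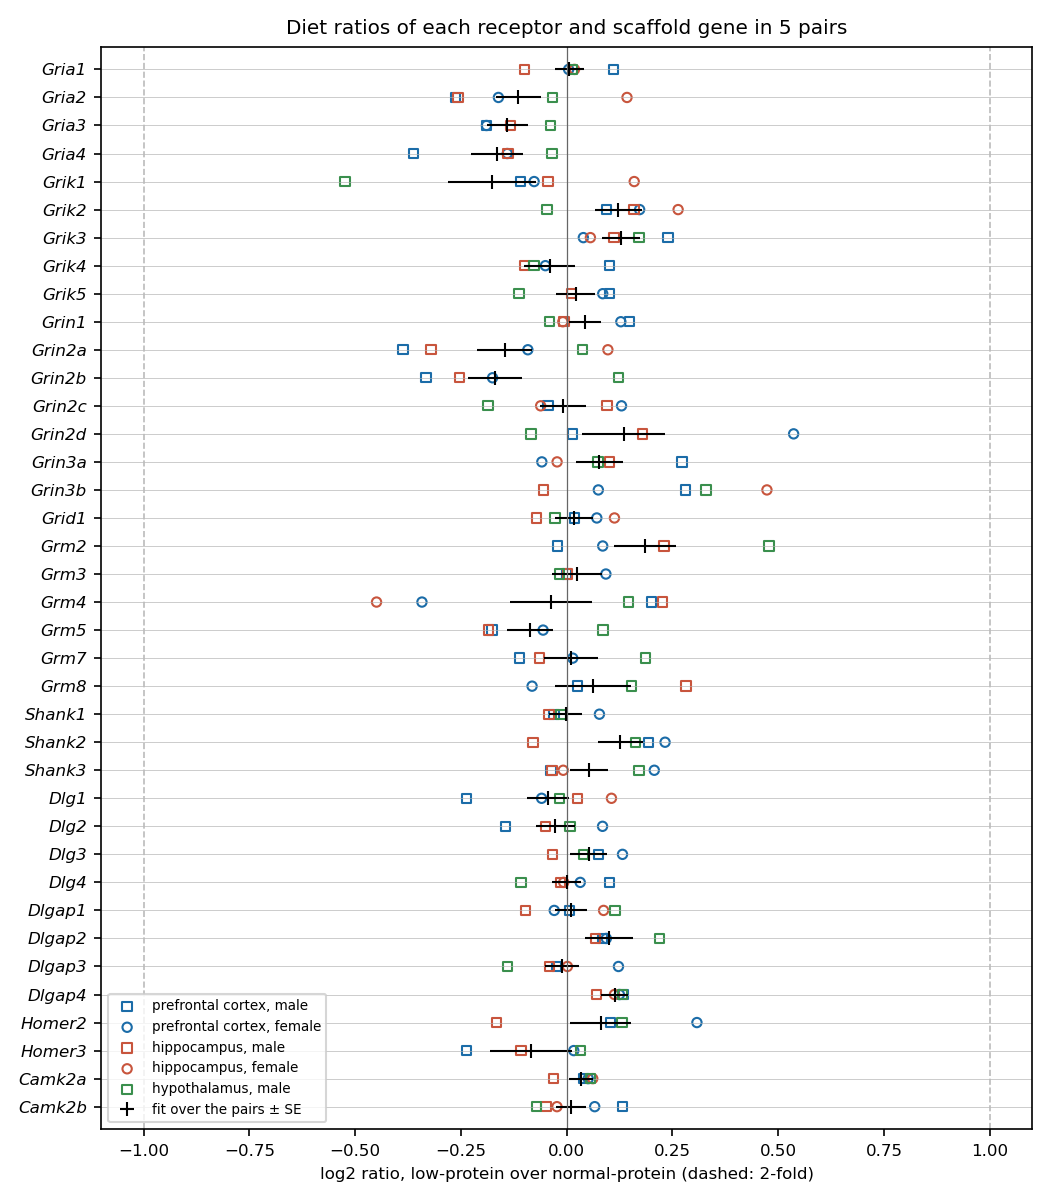
Log2 ratio of LP over NP for each gene in each of the 5 pairs (squares male, circles female, coloured by region), with the fitted difference and its standard error in black and dashed lines at 2-fold. All ratios lie inside the dashed lines, the fitted values run from -0.18 to 0.18, and for most genes the pairs fall on both sides of 0.

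Within regions, diet was tested for the 19 genes that were measured in all libraries and passed the filter. The 18 genes missing from the incomplete library were not fitted within regions, though all 4 prefrontal cortex libraries measured them. In prefrontal cortex 0 of 19 were called by edgeR's test, where 1.33% of 11433 genes were, and 6 had an unadjusted p under 0.05 (13.3% of all genes). DESeq2 called 0. Gria2 read 284 CPM in NP and 237 in LP males and 303 and 271 in females (-0.21 ± 0.07, adjusted p = 0.197), and Grin2a 136 and 104 CPM in males and 132 and 124 in females (-0.24 ± 0.09, adjusted p = 0.241). Both were called when either hippocampus pair was left out, Gria2 with adjusted p = 0.0437 without the male and 0.0276 without the female pair, Grin2a with 0.0425 and 0.0235, from fits with 1 residual degree of freedom and nearly the same differences. In hippocampus 0 of 19 were called (0.271% of all genes), 1 had an unadjusted p under 0.05 (5.72% of all genes), Grik2 at 0.21 ± 0.08 (adjusted p = 0.701), and DESeq2 called 0. The difference between the diet effects of the 2 regions was called for 0 of 19 genes in edgeR's test and in DESeq2 (0% of all genes), with 2 at an unadjusted p under 0.05, Dlg1 and Camk2b (5.18% of all genes).

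The hypothalamus pair has 1 library per diet and no test. Exact Poisson 95% intervals of the 2 libraries, which cover counting error only, were separate for 8 of the 38 genes, where 18.3% of all genes had separate intervals. Grik1 was lower in LP, at 19.6 CPM (17.6 to 21.7) in NP and 13.6 CPM (11.9 to 15.5) in LP. Grm2 was higher in LP, at 51.4 CPM (48.2 to 54.8) in NP and 71.7 CPM (67.7 to 75.9) in LP. The other 6, Grik3, Shank2 and Dlgap4 (higher) and Grik5, Dlg4 and Camk2b (lower), had log2 ratios from -0.11 to 0.17. The 2 libraries also differed in markers, NP against LP: 802 and 451 CPM over 7 hypothalamus markers, 104 and 22.4 over 4 pituitary markers, 764 and 608 over 3 markers of GABAergic neurons and 5277 and 3839.6 over 8 oligodendrocyte markers. The code in the label of the LP library also differs from those of the other libraries in a part that they share. The part of these differences in the values of Grik1, Grm2 and the other 6 genes was not tested.

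Sex was compared within region and diet in prefrontal cortex and hippocampus. No gene of the 37 was called by edgeR's test, where 0.425% of all genes were, 2 had an unadjusted p under 0.05 (8.93% of all genes) and DESeq2 called 0. Grm4, a presynaptic group III receptor, came nearest. Female against male it read 42.7 against 27.4 CPM (NP) and 33.6 against 31.5 CPM (LP) in prefrontal cortex, and 24.4 against 12.7 CPM (NP) and 17.8 against 14.9 CPM (LP) in hippocampus. It was higher in females in 4 of 4 comparisons, by 0.47 ± 0.11 (adjusted p = 0.120), and was called at 0.63 without the 2 LP prefrontal cortex libraries (adjusted p = 0.0426). Beside it, 4 thalamic markers summed to 165 and 104 CPM in the female and 76.7 and 91.1 CPM in the male hippocampus libraries and to 55.2 and 59.9 CPM in the female and 52.1 and 47.8 CPM in the male prefrontal cortex ones (NP, then LP), with 3 of the 5 markers of that list at an unadjusted p under 0.05 for sex. Of 6 neuronal activity genes 5 were called lower in females. The part of either list in the Grm4 difference was not tested.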

How the data were processed

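Raw read counts per gene were deposited by the authors, 1 column per library. Reads came from TruSeq libraries of 1 ug total RNA, per the labels' protocols, and were handled with CASAVA, FastQC 0.10.1 and STAR 2.5.0a on the mm10 genome, per the submitters' processing notes. Counting tool, strand setting and annotation: not given in the sources used here. Therefore reads shared between close paralogs or overlapping genes may be split between them. Total counts per library ranged from 7871010 to 16265481, and 3 counts corresponded to 0.163 to 0.307 CPM (counts scaled to effective library size). Gene coordinates and exon lengths came from GENCODE M21, which held 47310 of the 47729 identifiers. The 38 genes and all lists were chosen with earlier results of these data known.

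Genes with low counts were removed with filterByExpr (minimum count 10), counts were scaled by TMM and tested with edgeR 4.0.16 in R 4.3.3 (quasi-likelihood F test, Benjamini-Hochberg adjustment over all genes tested, threshold 0.05). Region contrasts used all libraries with additive sex and diet. The diet test had 5 pairs, each of 1 region and sex, as strata, and the sex test 4 strata, each of 1 region and diet. Genes missing from the incomplete female NP hippocampus library were fitted without it, and without its pair or stratum for diet and sex. Its CPM were scaled from the genes it shares with the other hippocampus libraries. Ratios use a prior count of 2. The exact test of shares doubles the smaller tail for its two-sided p. DESeq2 1.42.0 was an alternative, with RLE scaling, no filter, the earlier quasi-likelihood method, the missing genes kept as zeros, males alone, additive strata terms and omission of each library or pair. The procedure was tested on simulated data in which planted changes were 2-fold and all genes had a common spread. Smaller differences, such as those of diet here, were not simulated. Named in full are the 3 largest called differences in each direction of a region contrast, any gene called for diet or sex, otherwise the 4 with the smallest p over the diet pairs, and the family whose shares differ most. Other genes given by library were chosen after their values were seen. All p-values measure the spread between these libraries, which the labels do not tie to separate animals. Python 3.11.15 and SciPy 1.17.1 were used for shares and sequences.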

Additional observations from a re-analysis of the deposited data

How the results depend on the processing

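Keeping the zeros of the incomplete library, in place of treating its genes as missing, lowered the count of called genes to 14 for hippocampus against prefrontal cortex, 13 for hypothalamus against prefrontal cortex and 17 for hypothalamus against hippocampus, with the median of all genes then at -0.17, -0.09 and 0.10. Under it the diet differences of Gria3 (0.60) and Gria4 (0.56) turned to higher in LP. Under all other alternatives the 3 region counts stayed within 1.5 times of 30, 31 and 35. Leaving out pairs gave 0 to 1 called genes for diet over the pairs, 0 to 2 for diet in prefrontal cortex and 0 to 1 for sex; diet in hippocampus and the difference between regions stayed at 0 under all alternatives run. Share differences moved by more than the spread between libraries in 29 alternatives, all with another exon length or none, and by less in 252. Among the 25 shares whose libraries did not overlap, 0 changed sign. Signs were not counted for the shares with overlapping libraries. Some of those did change sign, such as Grin3a without the male NP hippocampus library. Over the 3 region comparisons and all 37 genes, keeping the zeros lost 52 calls, 47 of them with the direction kept. All other alternatives together lost 36, all with the direction kept and all in 9 genes (Gria1, Grik1, Grik2, Grin1, Grin3a, Grm4, Grm7, Grm8 and Shank3). Of the 31 shares 24 had an adjusted p under 0.05 with the two-sided p taken from the size of the difference, against 0 with the smaller tail doubled. The size-based definition was used first, and the doubled tail replaced it after its result was seen. Depth limits Grin3b, with at most 12 counts in a library.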

Other observations

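Across these genes the diet ratio followed the GC content of the transcript differently from pair to pair. Pearson correlations of the LP over NP log2 ratio with GC content were taken over 37 genes, without Grin3b. They were 0.39 in male prefrontal cortex, 0.41 in female prefrontal cortex, 0.37 in male hippocampus and 0.04 in hypothalamus. Over the 19 of them measured there, the correlation in the female hippocampus pair, which holds the incomplete library, was -0.60. The other pairs were not recomputed on those 19 genes, so pair and gene set are not separated in that value. For the difference fitted over the pairs it was 0.38 over the 37 genes and 0.12 over 17487 of all genes tested. Correlations with log2 transcript length also changed sign between pairs, from -0.42 in male hippocampus to 0.35 in female hippocampus. Genes of 1 pair share both libraries and are not independent, so these are descriptions of 5 pairs of libraries and carry no test. Gria2, Grin2a and Grik1, lower in LP in male and female prefrontal cortex and male hippocampus, were higher in LP in that female hippocampus pair (0.14, 0.10 and 0.16).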
